A study of Mus musculus with 18 samples.

Results

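Batf2, Apol6, Apol10b, 9330175E14Rik, A530040E14Rik and 9930111J21Rik2 are 6 mouse genes that rose strongly when AT3 cells received IFNγ and lost most of that rise when the P300/CBP inhibitor A-241 was present. The 6 genes were chosen by these measured values, namely by a rise with IFNγ relative to DMSO and for a log2 fold change under -2 with A-241+IFNγ relative to IFNγ alone, and both differences are therefore given as a description without a test. All 6 were found among the 43629 genes of the deposited count table and all 6 had enough counts, mostly through the IFNγ-treated libraries, to be among the 11964 genes tested. Among 137 genes induced by IFNγ (log2 fold change over 1 at an adjusted p under 0.01, edgeR), 59 had a log2 fold change under -2 with A-241, and the 6 genes held places 9, 10, 19, 26, 35 and 38 when these were ordered from the largest loss. Just inside that limit were Ifi205 with -2.05 and Gbp2 with -2.01, and just outside it were Phf11d with -1.97 and Tap2 with -1.93.

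The libraries came from AT3, a single mouse cell line derived from a mammary tumour that arose in a transgenic animal. Pre-treatment lasted 1 h and used DMSO vehicle, 250 nM A-241 or A-485 at 1000 nM, after which murine IFNγ (1 ng/mL) or vehicle was added for 2 h, so that inhibitors were present for 3 h in all. A-241 and A-485 are chemically distinct inhibitors of the catalytic domain of P300 and CBP, and they were used at different doses, so that compound and dose cannot be told apart. The 6 conditions (DMSO, A-241, A-485, IFNγ, A-241+IFNγ and A-485+IFNγ) had 3 libraries each of 3′ mRNA sequencing, in which a read marks the end of a transcript. Labels call the triplicates biological and the study's methods call them technical, so n counts libraries of 1 cell line and p-values measure the spread between these libraries.

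IFNγ binds a receptor whose kinases activate latent transcription factors, which induce IRF1, and GAS and ISRE motifs of target genes are then bound. P300 and CBP are acetyltransferases that are recruited to active enhancers and promoters and acetylate histones there. BATF2 is a basic leucine zipper factor of the BATF family, known as a partner of IRF1 in macrophages. Apolipoprotein L proteins bind lipids and membranes, and several human members are induced by IFNγ. Immunity-related GTPases act on the vacuoles of intracellular pathogens in mice.

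Of the 6 genes, 4 are annotated as protein coding and 2 as long noncoding RNA (coordinates of GRCm38, GENCODE vM21). Batf2 lies on chromosome 19 from 6140983 to 6172476 on the plus strand, and 51 of its exon bases are shared with Arl2 on the opposite strand. Apol6 lies on chromosome 15 from 77044729 to 77057106 on the plus strand and shares 64 exon bases with Mb, the gene of myoglobin, on the opposite strand. Apol10b lies on the same chromosome from 77583819 to 77596125 on the minus strand. The lincRNA 9330175E14Rik lies on chromosome 8 from 94422898 to 94435103 on the minus strand, opposite to Nlrc5, the transactivator of MHC class I genes. Those 2 genes share 78 exon bases, and their outermost annotated starts are 747 bases apart. A530040E14Rik, annotated as an antisense RNA, lies on chromosome 1 from 85105946 to 85114035 on the plus strand and shares 343 exon bases with C130026I21Rik on the opposite strand. 9930111J21Rik2 lies on chromosome 11 from 49015874 to 49051242 on the minus strand, in a cluster of immunity-related GTPase genes.

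A promoter window of 300 bases (250 before and 50 after the start) was held in the RefSeq table of GRCm38.p6 for 4 of the 6 genes, Apol10b, 9330175E14Rik, A530040E14Rik and 9930111J21Rik2. They were searched on both strands for an ISRE-type motif (GAAANNGAAA) and a GAS-type motif (TTCNNNGAA), the letters to which IRF and STAT factors are known to bind. The window of Apol10b held the ISRE-type letters on the minus strand of the window, starting 4 bases before the annotated start and running over it, and these bases are printed in capitals as read on the strand of the gene. Of all 32851 promoter windows 3.44% held this motif. The other 3 windows held none, and the GAS-type letters, found in 8.3% of all windows, were in none of the 4. The window of 9330175E14Rik, beside Nlrc5, is shown for comparison and has no capitals. Apol10b is at chr15:77596076-77596375 and 9330175E14Rik at chr8:94435054-94435353, both on the minus strand and written 5′ to 3′.
Apol10b: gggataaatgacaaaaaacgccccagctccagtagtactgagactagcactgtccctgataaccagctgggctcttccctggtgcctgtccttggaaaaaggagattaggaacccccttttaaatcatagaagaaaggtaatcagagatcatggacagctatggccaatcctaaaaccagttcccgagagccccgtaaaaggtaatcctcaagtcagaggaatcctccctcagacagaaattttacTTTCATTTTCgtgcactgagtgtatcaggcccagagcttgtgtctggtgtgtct
9330175E14Rik: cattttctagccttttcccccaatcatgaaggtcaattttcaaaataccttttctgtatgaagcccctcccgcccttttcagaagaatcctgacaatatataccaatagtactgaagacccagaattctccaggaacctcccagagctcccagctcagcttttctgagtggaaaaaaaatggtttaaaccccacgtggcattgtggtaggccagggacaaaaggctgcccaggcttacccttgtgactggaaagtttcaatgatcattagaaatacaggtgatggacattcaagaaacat

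Libraries held between 3417167 and 7856830 counts, with a median of 4880948. Levels are given as CPM, the read count relative to the TMM-scaled size of the library, and 3 counts, up to which a count of 0 is compatible, lie between 0.368 and 1.03 CPM (a limit for counting error alone). Within conditions, none of the 18 pairs of libraries agreed within sampling noise. DMSO replicate 3 and IFNγ replicate 2 stood apart in the share of Gm42418, which took 20.1% and 23.0% of their counts against 7.11% to 16.2% in the others. All 6 epithelial markers checked were detected in each library, with a summed level of 1520 to 1770 CPM with DMSO, 1320 to 1490 with IFNγ and 963 to 1200 in the conditions with an inhibitor. The part of this shift in the results was not tested. Epithelial Cdh1 was between 286 and 792 CPM, while the macrophage marker Adgre1 and the endothelial marker Cdh5 had 0 counts throughout. Pecam1, the other endothelial marker checked, had between 2 and 20 counts per library (at most 4.12 CPM). The leukocyte markers Cd68 and Itgam were also found in every library, with 1 to 14 and 1 to 22 counts. The summed level of 7 leukocyte markers was between 1.83 and 20.2 CPM, with its highest value in A-485 (4.38 to 20.2 CPM), where Ptprc, a marker of leukocytes, had 37, 1 and 73 counts.

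The strength of the response and of its loss differed among the 6 genes. With IFNγ alone they rose from at most 16 counts per library with DMSO to between 7 and 278. With A-241+IFNγ the mean level was between 2.58% and 15.1% of that with IFNγ alone, and with A-485+IFNγ it was between 21.2% and 58.0%. Of all genes tested, 1.2% were called higher with IFNγ than with DMSO and 3.54% were called lower with A-241+IFNγ than with IFNγ (adjusted p under 0.01, edgeR), and since both comparisons chose the 6 genes nothing is read from their own calls. Without the 2 libraries rich in Gm42418, the log2 fold changes were between 3.62 and 8.79 with IFNγ and between -5.2 and -2.85 with A-241+IFNγ relative to IFNγ.

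**Figure D1:**
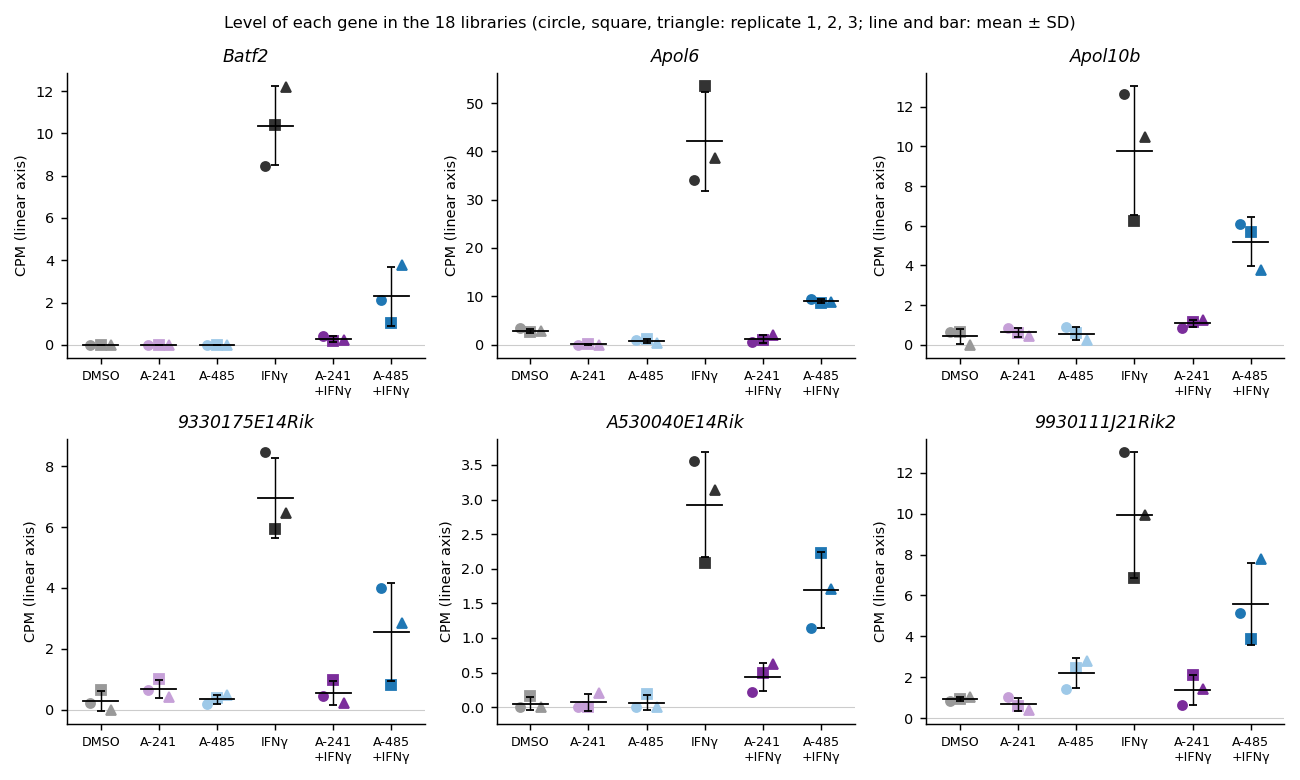
Level in CPM (linear vertical axis) of each of the 6 genes in the 18 libraries of 6 conditions, with points for libraries (circle, square and triangle for replicates 1, 2 and 3) and a line and bar for mean ± SD. In each panel the 3 libraries with IFNγ alone lie above those with DMSO, and those with A-241+IFNγ lie below those with IFNγ alone.

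Batf2, the transcription factor, was not detected without IFNγ. It had 0 counts in all 9 libraries of DMSO, A-241 and A-485, which allows at most 3 counts in each. With IFNγ it had 69, 35 and 70 counts, or 10.4 ± 1.88 CPM (SD, n = 3), at least 10.02-fold higher than with DMSO. The 35 counts of IFNγ replicate 2 came from a shallower library, and its level was 101% of the mean of the other 2. With A-241+IFNγ the counts were 2, 1 and 1, which is 39.4-fold fewer than with IFNγ alone (95% counting interval 15.1 to 146). With A-485+IFNγ there were 11, 5 and 20 counts, or 2.30 ± 1.40 CPM, and the log2 fold change relative to IFNγ was -2.14 ± 0.42 (standard error). It was -2.74 without A-485+IFNγ replicate 3, the highest of the 3 libraries. The order of the conditions was thus IFNγ, A-485+IFNγ, A-241+IFNγ and then the 3 conditions without IFNγ, with no overlap of libraries between the first 4 places. The counts with A-241+IFNγ nevertheless lay under the 3 that a count of 0 would allow. Arl2, which shares exon bases with Batf2, had between 69 and 210 counts in every library, so in the 9 libraries without IFNγ none of its reads were also counted for Batf2.

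Apol6, whose human counterpart is known for a role in cell death, was the gene among the 6 with a clear level before IFNγ. It had 16, 16 and 8 counts with DMSO (2.88 ± 0.436 CPM), and 278, 180 and 221 with IFNγ (42.1 ± 10.2 CPM), a log2 fold change of 3.85 ± 0.36. With A-241 alone there were 0, 1 and 0 counts, which is 41.5-fold fewer than with DMSO (95% counting interval 7.03 to 1680), and with A-485 alone 5, 6 and 1 counts (log2 fold change -1.85 ± 0.48 relative to DMSO). No library of either inhibitor reached the DMSO libraries, which held for 13.4% of all genes tested with A-241 and for 8.84% with A-485. Addition of IFNγ brought Apol6 to 2, 6 and 10 counts in the presence of A-241 and to 49, 42 and 47 in that of A-485. A-241+IFNγ thereby left Apol6 at 1.16 ± 0.827 CPM, below the untreated level in each library (log2 fold change -1.30 ± 0.45 relative to DMSO, -1.95 without A-241+IFNγ replicate 3, with all libraries lower for 13.6% of genes tested). Relative to IFNγ alone its log2 fold change was -5.15 ± 0.39 in the presence of A-241 and -2.22 ± 0.31 in that of A-485, and the former was -5.81 without A-241+IFNγ replicate 3. The order was IFNγ, A-485+IFNγ, DMSO, A-241+IFNγ, A-485 and A-241, and of these neighbours A-241+IFNγ and A-485 overlapped. The 3 libraries of A-485+IFNγ lay close together, between 8.54 and 9.36 CPM.

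Reads on the exon bases that Apol6 shares with Mb were counted for both genes. Mb had 29, 38 and 15 counts with DMSO and 8, 5 and 2 with A-241, and was lower with A-241 (log2 fold change -2.46 ± 0.38, adjusted p = 0.000518, edgeR). With IFNγ the counts of Mb were 31, 13 and 30, beside 278, 180 and 221 of Apol6. The rise of Apol6 with IFNγ therefore exceeded the counts of Mb, whereas at the low counts without IFNγ the share of reads common to both genes was not tested.

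Apol10b, a mouse member of the apolipoprotein L family, was near the limit of detection without IFNγ. It had 3, 4 and 0 counts with DMSO, 4, 3 and 2 with A-241, and 5, 3 and 1 with only A-485. IFNγ brought it to 103, 21 and 60 counts, or 9.78 ± 3.25 CPM (log2 fold change 4.28 ± 0.47 relative to DMSO). The lowest of these was IFNγ replicate 2, at 54% of the mean of the other libraries. With A-241+IFNγ there were 4, 7 and 6 counts (1.08 ± 0.190 CPM, log2 fold change -3.17 ± 0.41 relative to IFNγ). With A-485+IFNγ there were 32, 28 and 20 counts (5.20 ± 1.24 CPM, -0.94 ± 0.34). Levels fell in the order IFNγ, A-485+IFNγ, A-241+IFNγ, A-241, A-485 and DMSO, and the last 3 overlapped. Relative to A-241 alone, A-241+IFNγ was higher by 0.79 ± 0.56 on the log2 scale, with all 3 libraries above.

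The lincRNA 9330175E14Rik had 1, 4 and 0 counts with DMSO, 3, 5 and 2 with A-241, and 1, 2 and 2 with only A-485. It had 69, 20 and 37 counts with IFNγ, or 6.95 ± 1.33 CPM (log2 fold change 4.25 ± 0.63, and 5.52 without DMSO replicate 2). With A-241+IFNγ only 2, 6 and 1 counts were left, a level of 0.539 ± 0.396 CPM that overlapped with those of all 3 conditions without IFNγ. Its log2 fold change relative to IFNγ was -3.58 ± 0.57, and -4.36 without A-241+IFNγ replicate 2. With A-485+IFNγ it had 21, 4 and 15 counts (2.56 ± 1.62 CPM), the widest relative spread of the 6 genes in that condition, and its lowest library lay below the highest with A-241+IFNγ. Libraries of IFNγ alone did not overlap with those of any other condition, while every other pair of neighbours in the order of levels overlapped.

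Nlrc5, on the other strand, had 66, 11 and 33 counts with IFNγ, 2, 5 and 5 with A-241+IFNγ and 9, 9 and 14 with A-485+IFNγ. Without IFNγ it had between 0 and 3 counts. Over the 18 libraries the log2 CPM of 9330175E14Rik and Nlrc5 had a Pearson's r of 0.884, a description of libraries in which conditions, depth and the reads on shared bases are common to both genes. The counts of 9330175E14Rik were above those of Nlrc5 in 10 of 18 libraries, so some of its reads lay outside the shared bases.

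A530040E14Rik had 29, 7 and 18 counts with IFNγ, or 2.93 ± 0.761 CPM, against 0, 1 and 0 with DMSO, 0, 0 and 1 with A-241, and 0, 1 and 0 with only A-485. The summed counts with IFNγ were 43.8-fold those with DMSO after scaling (95% counting interval 7.54 to 1760). This ratio rests on the single count of DMSO replicate 2, and the fitted log2 fold change of 5.0 was 6.94 without that library. It kept 1, 3 and 3 counts with A-241+IFNγ, 6.98-fold fewer than with IFNγ alone (95% counting interval 3.17 to 18.2). With A-485+IFNγ it had 6, 11 and 9 counts (1.7 ± 0.545 CPM), and these libraries overlapped with IFNγ alone (log2 fold change -0.82 ± 0.44). The order of levels was IFNγ, A-485+IFNγ, A-241+IFNγ, A-241, A-485 and DMSO, with overlap between the first pair and among the last 3. C130026I21Rik had at most 8 counts in any library and 2, 1 and 1 with IFNγ, so most reads of A530040E14Rik in that condition were not shared with it. With A-485+IFNγ, C130026I21Rik had 8, 5 and 4 counts beside the 6, 11 and 9 of A530040E14Rik. The part of shared reads in that condition, and so in the level kept there, was not tested. In addition, 40.1% of the 75-base windows in the last 500 bases of the transcripts of A530040E14Rik also occur in other genes, most often Gm10552, so its values are uncertain.

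9930111J21Rik2, of the chromosome 11 cluster, had the smallest fitted log2 fold change with IFNγ among the 6, 3.41 ± 0.43. It had 4, 6 and 3 counts with DMSO and 106, 23 and 57 with IFNγ (9.93 ± 3.08 CPM). A-241+IFNγ left 3, 13 and 7 counts (1.40 ± 0.733 CPM), which overlapped with all 3 conditions without IFNγ, and the log2 fold change relative to IFNγ was -2.78 ± 0.39. With A-485+IFNγ there were 27, 19 and 41 counts (5.60 ± 1.99 CPM), overlapping with IFNγ alone (-0.85 ± 0.34). Unlike the other 5 genes, all of its libraries with A-485 alone (8, 13 and 12 counts, 2.22 ± 0.721 CPM) lay above those with DMSO, which was so for 7.07% of genes tested (log2 fold change 1.22 ± 0.49). Its level in these libraries was 1.41, 2.48 and 2.78 CPM while Ptprc was at 6.52, 0.19 and 16.9 CPM, and the part of Ptprc-expressing cells in it was not tested. The order was IFNγ, A-485+IFNγ, A-485, A-241+IFNγ, DMSO and A-241, and only A-485+IFNγ and A-485 were neighbours without overlap. In the last 500 bases of its transcripts 60.9% of 75-base windows also occur elsewhere, almost all in the near-identical 9930111J21Rik1, so reads of these 2 genes may be mixed.

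**Figure D2:**
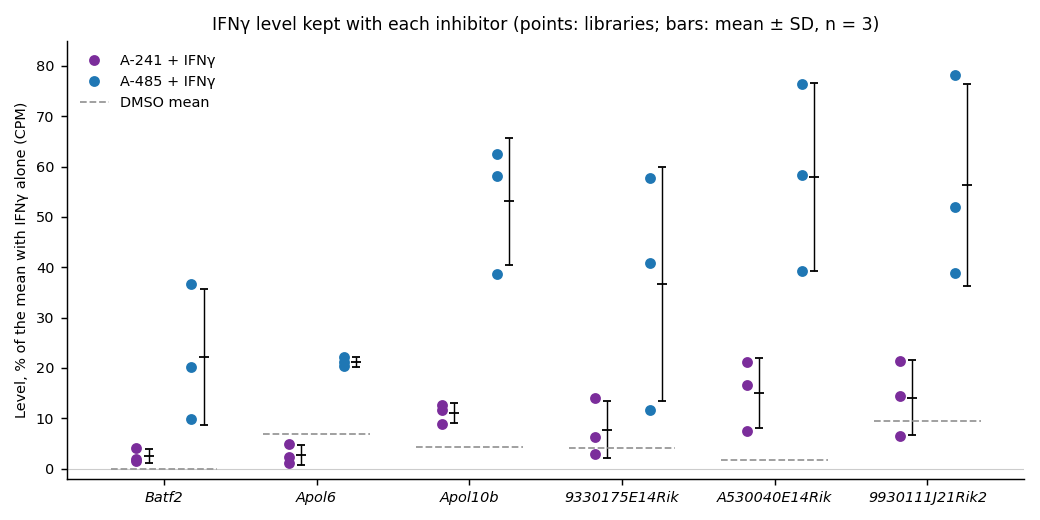
Level of each gene with A-241+IFNγ and with A-485+IFNγ as a percentage of its mean CPM with IFNγ alone (vertical axis), with points for the 3 libraries, bars for mean ± SD and a dashed line for the DMSO mean. Batf2 and Apol6 kept the least, 2.58% and 2.75% under A-241, 22.2% and 21.2% under A-485.

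Side by side, A-241+IFNγ left 2.58% ± 1.41 of the IFNγ level of Batf2 (SD, n = 3) and 2.75% ± 1.97 of that of Apol6, 7.75% ± 5.69 for 9330175E14Rik, 11.0% ± 1.94 for Apol10b, 14.1% ± 7.38 for 9930111J21Rik2 and 15.1% ± 6.98 for A530040E14Rik. A-485+IFNγ left 21.2% ± 0.979 for Apol6, 22.2% ± 13.5 for Batf2, 36.7% ± 23.3 for 9330175E14Rik, 53.1% ± 12.6 for Apol10b, 56.4% ± 20.1 for 9930111J21Rik2 and 58.0% ± 18.6 for A530040E14Rik. Batf2 and Apol6 thus held the lowest mean places with both inhibitors. Their libraries overlapped with those of 9330175E14Rik but not with those of Apol10b, 9930111J21Rik2 or A530040E14Rik, which overlapped among themselves. Without IFNγ replicate 2 in the reference, the percentages with A-485 became 24.6% for Apol6 and 45.0% for Apol10b, and those of the other 4 genes were 22.3% to 50.6%. Libraries with A-241+IFNγ all lay below those with A-485+IFNγ for 5 of the 6 genes, 9330175E14Rik being the exception, and this held for 11.8% of genes tested. Libraries with A-485+IFNγ all lay below IFNγ alone for 4 genes (Batf2, Apol6, Apol10b and 9330175E14Rik), against 10% of genes tested. These comparisons share libraries with those that chose the genes and are descriptions.

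The response to IFNγ that remained under A-485 compared libraries that had no part in the choice and was tested. The filter on low counts and the estimate of spread used all 18 libraries, however, those of the choice included. All 6 genes were higher with A-485+IFNγ than with A-485 alone in each of 3 libraries, as were 9.49% of genes tested, and 4 of the 6 passed an adjusted p under 0.01 (edgeR), against 0.744% of genes tested called higher. The 6 were chosen for a rise with IFNγ, so nothing is read from their excess over these shares. Apol6 rose by 3.48 ± 0.43 on the log2 scale (adjusted p = 0.000167, edgeR) and kept this call in all 16 alternatives run. Apol10b rose by 3.10 ± 0.47 (adjusted p = 0.00113, edgeR), a call lost without A-485 replicate 2 (adjusted p = 0.0145, edgeR) and without A-485 replicate 3 (adjusted p = 0.011, edgeR). Batf2 rose from 0 counts to at least 3.31-fold that limit (adjusted p = 0.00973, edgeR), and this call was lost in 9 of 15 alternatives, with adjusted p values from edgeR and the other tools between 0.000375 and 0.0403. A530040E14Rik rose 25.7-fold by summed counts (95% counting interval 4.22 to 1050, adjusted p = 0.00967, edgeR), from 1 count in all to 26, and lost its call in 10 of 14 alternatives (adjusted p between 0.00182 and 0.0851). Some of these 26 reads may be shared with C130026I21Rik. The 2 genes that did not pass were 9330175E14Rik, with a ratio of summed counts of 7.9 (95% counting interval 3.12 to 25.6, adjusted p = 0.052, edgeR), and 9930111J21Rik2, with a log2 fold change of 1.35 ± 0.39 (adjusted p = 0.17, edgeR). 9930111J21Rik2 started from the higher level with A-485 alone described above. When only the 6 libraries of these conditions were fitted, only 3 of the 6 genes had enough counts, and Apol6 and Apol10b passed. Batf2 and A530040E14Rik were not among the 3, so they were tested only through the filter over all 18 libraries.

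**Figure D3:**
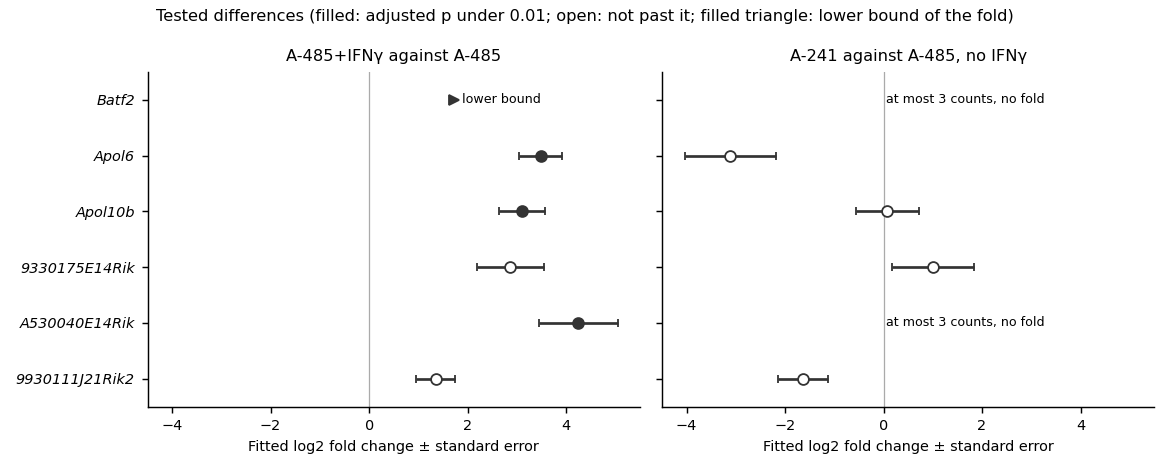
Fitted log2 fold change (horizontal axis) with its standard error for each gene, for A-485+IFNγ against A-485 (left) and A-241 against A-485 without IFNγ (right). Filled points passed an adjusted p under 0.01, open points did not, and the triangle of Batf2 is the lower bound of at least 3.31-fold. The fitted value of A530040E14Rik rests on 1 count with A-485.

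Without IFNγ, A-241 and A-485 were compared with each other, again in libraries that had no part in the choice. None of the 6 genes had enough counts in these libraries alone, so all were tested only through the filter over all 18 libraries. Batf2 had 0 counts in both conditions and A530040E14Rik 1 count in all in each, so no difference could be seen for them. The other 4 genes also had few counts there, and 0 were called lower with A-241 (edgeR, DESeq2 and limma-voom), while 0.351% of genes tested were. With so few counts a call for these 4 was unlikely, so nothing is read from the 0. An unadjusted p under 0.05 (edgeR) was found for 2 of them, a count given without its share over all genes and not interpreted. These were Apol6, with 0, 1 and 0 counts against 5, 6 and 1 (11.4-fold fewer, 95% counting interval 1.69 to 489, adjusted p = 0.192, edgeR), and 9930111J21Rik2, with 5, 3 and 2 counts against 8, 13 and 12 (log2 fold change -1.64 ± 0.51, adjusted p = 0.216, edgeR). For both genes all libraries of A-241 lay below those of A-485, as for 11.3% of genes tested. Apol10b had a log2 fold change of 0.08 ± 0.63 and 9330175E14Rik one of 1.01 ± 0.83, both with overlapping libraries.

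With A-241 present, the response to IFNγ was uneven. Relative to A-241 alone, Apol6 had 16.7-fold more summed counts (95% counting interval 2.64 to 698), a ratio that rests on the 1 count of A-241 replicate 2, and 9930111J21Rik2 was higher by 1.04 ± 0.54 on the log2 scale, with overlapping libraries. The log2 fold change of 9330175E14Rik was -0.27 ± 0.75, with a range of -1.06 to 0.13 when single libraries were left out. All 3 libraries were higher with IFNγ for Batf2, Apol6, Apol10b and A530040E14Rik, as for 6.08% of genes tested, but Batf2 and A530040E14Rik had at most 3 counts in each of these libraries.

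The families and pathways to which the genes belong moved unevenly. These lists exclude the 6 genes, were chosen with earlier results of these data known, and their medians stand beside a median of -0.01 over all genes tested for A-485+IFNγ against A-485. Of 12 other apolipoprotein L genes in the table, 3 had enough counts to be tested. Apol7a, Apol9a and Apol9b had a median log2 fold change of 0.39 for A-485+IFNγ against A-485, and 0 passed the test (edgeR). Apol9a and Apol9b, near-identical copies that may share reads, fell when A-241 was present with IFNγ (log2 fold change -2.36 ± 0.38 and -2.45 ± 0.53, adjusted p values of 0.000809 and 0.00727, edgeR). Their levels with IFNγ were highest in replicate 2, 41.9 CPM against 17.3 and 20.2 for Apol9a and 49.3 CPM against 14.1 and 19.4 for Apol9b. Without that library the log2 fold change was -1.88 ± 0.33 for Apol9a (adjusted p = 0.00147, edgeR) and -1.75 ± 0.46 for Apol9b, whose call was lost (adjusted p = 0.0254, edgeR). With A-241 alone relative to DMSO their log2 fold changes were -1.62 ± 0.40 and -1.87 ± 0.56 (adjusted p values of 0.0171 and 0.0453, edgeR). With DMSO, Apol9a had 46, 54 and 60 counts and Apol9b 30, 54 and 81. The highest came from replicate 3, the shallowest library and rich in Gm42418, and the fall without it is not given. Neither gene passed the test for a rise with IFNγ alone (log2 fold change 1.05 ± 0.36 and 0.99 ± 0.49, adjusted p = 0.263 and 0.629, edgeR).

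Of the genes of the BATF and AP-1 families, which encode leucine zipper factors, 9 of 11 were tested. With A-485+IFNγ relative to A-485, 2 rose (0.744% of genes tested), with a median of 0.24. They were Atf3, with 3.15 ± 0.936 CPM before and 14.4 ± 1.40 CPM after IFNγ (adjusted p = 0.00145, edgeR), and Jun (1.17 ± 0.13, adjusted p = 4.98e-05, edgeR). Jun was 84.3 ± 4.96 CPM with DMSO, 217 ± 22.6 with IFNγ and 136 ± 0.871 with A-241+IFNγ (log2 fold change -0.67 ± 0.13 relative to IFNγ, adjusted p = 0.00266, edgeR). Fos went the other way, from 1.49 ± 0.555 CPM with IFNγ to 6.56 ± 1.01 with A-241+IFNγ (2.23 ± 0.36, adjusted p = 0.000753, edgeR). Of the 9 genes, 1 was thus called lower (3.54% of genes tested) and 1 higher in that comparison. Among 14 genes of IFNγ signalling, 3 rose with A-485+IFNγ relative to A-485 (0.744% of genes tested), with a median of 0.23. This count was 6 with DESeq2 and 5 without the filter on low counts. Irf1, the factor through which many IFNγ targets are induced, rose by 4.64 ± 0.31 on the log2 scale (adjusted p = 1.09e-07, edgeR), and Stat2 by 1.68 ± 0.22 (adjusted p = 0.000318, edgeR). The level of Irf1 with A-241+IFNγ was 356 ± 7.75 CPM, against 649 ± 214 with IFNγ alone and 19.3 ± 6.86 with DMSO. Its log2 fold change with A-241+IFNγ relative to IFNγ was -0.87 ± 0.26 (adjusted p = 0.0547, edgeR). The 6 genes had -2.69 to -5.2 there, but were chosen for values under -2 in this same comparison. A larger fall than that of Irf1 was therefore fixed by the choice, and the difference in size was not tested.

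Of the immunity-related GTPases, 12 of 15 were tested and 9 rose with A-485+IFNγ relative to A-485 (0.744% of genes tested), with a median of 4.20. The smallest p-values were those of Igtp (4.34 ± 0.21), Iigp1 (5.44 ± 0.31), Gm4841 (7.79 ± 0.48), Irgm1 (2.80 ± 0.26) and F830016B08Rik (6.17 ± 0.58), all log2 fold changes with adjusted p values of at most 2.7e-05 (edgeR). Igtp shares exon bases with Irgm2, and Gm4841 and F830016B08Rik had few counts without IFNγ, so that the size of their rise is uncertain. With A-241+IFNγ relative to IFNγ 11 of the 12 fell (3.54% of genes tested), with a median of -3.20, and 6 were lower with A-241+IFNγ than with A-485+IFNγ, against 0.51% of genes tested. Relative to IFNγ, 2 of the 12 were lower with A-485+IFNγ, against 0.535% of genes tested. With A-241 present 5 still rose on IFNγ, against 0.192% of genes tested.

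**Figure D4:**
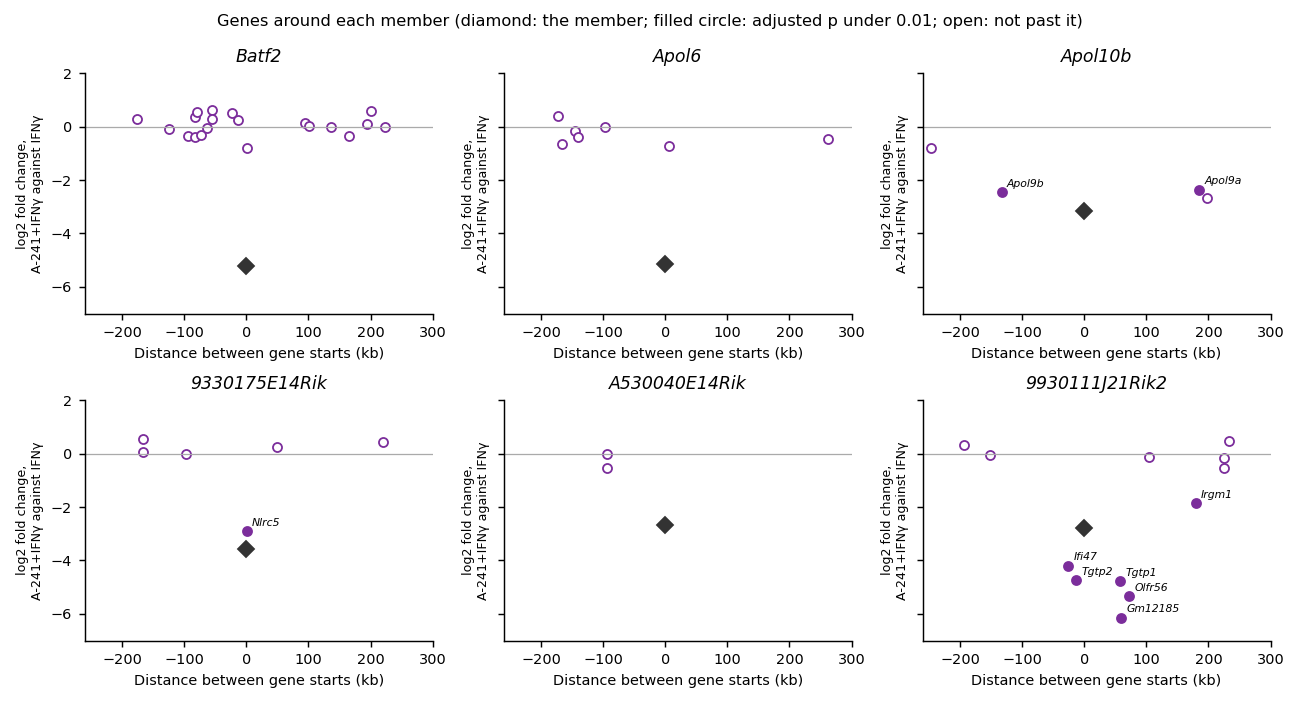
Log2 fold change with A-241+IFNγ relative to IFNγ (vertical axis) of the tested genes around each of the 6, by distance between annotated gene starts in kb (horizontal axis). Filled circles passed an adjusted p under 0.01, open ones did not, and the diamond is the gene itself. It stands alone below -2 in the panels of Batf2, Apol6 and A530040E14Rik, the last with only 2 tested neighbours.

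Genes within 200 kb of the 6 were examined in the same comparisons. Over all genes tested, 1.2% were called higher with IFNγ than with DMSO and 3.54% lower with A-241+IFNγ than with IFNγ. For A-485+IFNγ against A-485, 0.744% were called higher. Around Batf2, 20 of 36 neighbours were tested, and 0 were called with IFNγ relative to DMSO or with A-241+IFNγ relative to IFNγ (edgeR). Around Apol6, 7 of 11 were tested and 0 were called in either of these, and Mb was lower with A-241 alone as described. Of 4 tested neighbours of Apol10b, Apol9a and Apol9b fell with A-241+IFNγ, a call lost for Apol9b without IFNγ replicate 2. Of 6 tested around 9330175E14Rik, Nlrc5 alone was called, higher with IFNγ (4.63 ± 0.58, adjusted p = 0.000133, edgeR) and lower with A-241+IFNγ (-2.90 ± 0.46, adjusted p = 0.000701, edgeR). Around A530040E14Rik 2 of 17 were tested and 0 were called. The surroundings of 9930111J21Rik2 differed from these in count, with 6 of 12 tested neighbours higher with IFNγ and the same 6 (Irgm1, Gm12185, Olfr56, Tgtp1, Tgtp2 and Ifi47) lower with A-241+IFNγ. Of these, Irgm1, Tgtp1, Tgtp2 and Olfr56 also rose with A-485+IFNγ relative to A-485, with a log2 fold change of 4.21 ± 0.47 for Tgtp1 (adjusted p = 5.82e-05, edgeR) and of 4.22 ± 0.52 for Tgtp2 (adjusted p = 0.000157, edgeR). Tgtp1 and Tgtp2 are near-identical copies whose reads may be mixed, and Olfr56 shares 111 exon bases with Ifi47 on the same strand. Tgtp1 also shares 223 exon bases with Gm12185 on the same strand. Of the neighbours called around 9930111J21Rik2, all but Olfr56 are also counted among the immunity-related GTPases above.

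**Figure D5:**
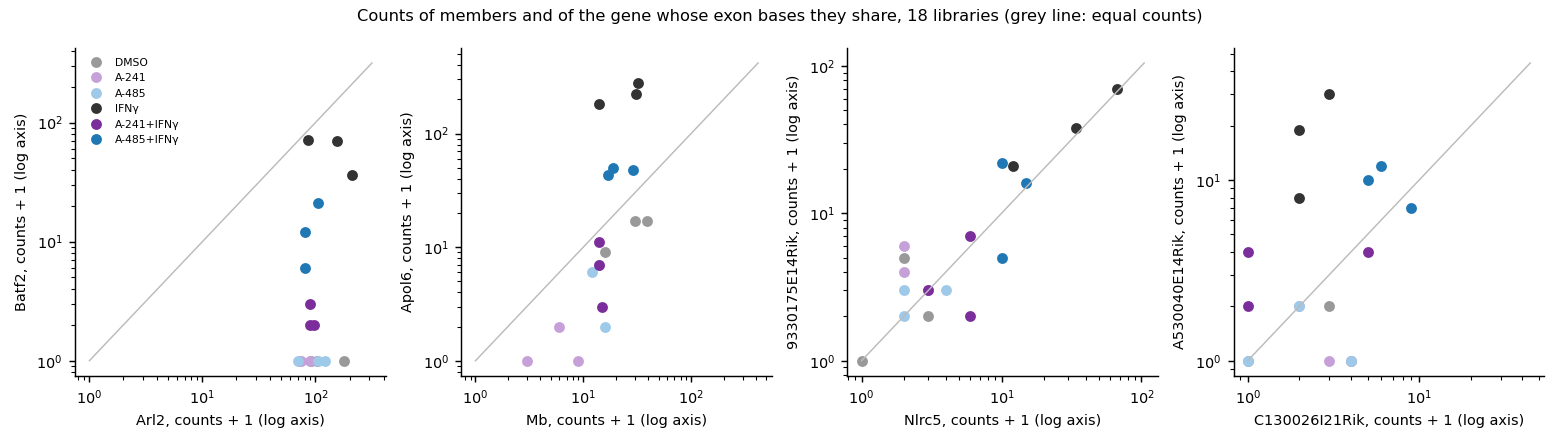
Counts plus 1 (log axes) of Batf2, Apol6, 9330175E14Rik and A530040E14Rik against those of the gene with which each shares exon bases, in 18 libraries coloured by condition, with a grey line at equal counts. Arl2 stays between 69 and 210 counts while Batf2 goes from 0 to 70, whereas Nlrc5 and 9330175E14Rik lie along the line in the libraries with IFNγ alone.

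Across the 18 libraries, Pearson's r of log2 CPM between pairs of the 6 genes was between 0.764 and 0.945. The genes outside the 6 whose profile was most like their mean were Olfr56 (r = 0.981), Ifi203 (0.977), Samhd1 (0.975), Gm4951 (0.973) and Tgtp1 (0.971). For single genes the most alike were Slamf8 (0.980) and Gbp2b (0.975) for Batf2, Ifi211 (0.958) and Ifit2 (0.948) for Apol6, and Ifi203 and Myd88 (both 0.954) for Apol10b. For 9330175E14Rik they were Batf2 (0.922) and Gbp2b (0.918), for A530040E14Rik Cxcl9 (0.959) and Tgtp1 (0.957), and for 9930111J21Rik2 Gm43302 (0.932) and Ifi203 (0.926). These coefficients describe 18 libraries of 6 conditions, share the contrast by which the genes were chosen, and Gm43302 shares exon bases with Gbp10 and Gbp6.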

How the data were processed

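Expression was measured by QuantSeq 3′ mRNA sequencing of 18 AT3 libraries. The authors trimmed reads with cutadapt 1.7, aligned them to GRCm38 with HISAT2 2.1.0 and counted them on exons with featureCounts, reads on several genes being counted for each. What the authors deposited are unnormalized read counts for each gene. Counting ignored strand, so genes with overlapping exons share reads, and reads of near-identical genes may be lost or mixed. No molecular identifiers were counted.

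Of 43629 gene identifiers 42462 were matched to a symbol in GENCODE vM21. Computations used R 4.3.3 with edgeR 4.0.16, limma 3.58.1 and DESeq2 1.42.0, and Python 3.11.15 with pandas 2.3.3 and matplotlib 3.10.9. Low counts were filtered with filterByExpr, libraries were scaled by TMM factors, and 1 quasi-likelihood model was fitted to all 18 libraries. Benjamini-Hochberg adjustment ran over 11964 genes, with a call at an adjusted p under 0.01. Levels are CPM, and log2 CPM used a prior count of 2. The method was tested on simulated data with the seed 1. Depth was between 3417167 and 7856830 counts per library.

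A fold against a group at 0 counts is a lower bound from 3 counts in its shallowest library. Against a group with 1 to 3 counts in its libraries, the ratio of summed counts is given with an exact 95% interval for counting error, in place of the bound first planned. The 6 genes and the lists were chosen with earlier results of these data known. Named genes were the 6, from each list those called for A-485+IFNγ against A-485 (at most 5 by p), the 2 nearest on each side of the selection limit, and those most alike by Pearson's r over 18 libraries. The values of 1 listed gene are not reported here. Others were named where a value of the 6 genes or of another named gene touched them, after their values were seen. Shared sequence was counted in 75-base windows. Alternatives were DESeq2, limma-voom, other scaling, other filters, a replicate block, the compared groups alone, both libraries rich in Gm42418 left out, other thresholds and each replicate left out. In the tested comparisons same-numbered libraries did not deviate together.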

Additional observations from a re-analysis of the deposited data

How the results depend on the processing

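The count of 4 genes higher with A-485+IFNγ than with A-485 was 2 with total counts in place of TMM, 2 with at least 10 counts on average (5 genes tested), 2 with the 6 libraries fitted alone (3 genes tested) and between 1 and 3 with 1 library left out. It was 1 without A-485 replicate 2 or replicate 3, 2 without A-485 replicate 1 or A-485+IFNγ replicate 1 or 3, and 3 without A-485+IFNγ replicate 2. With a replicate block it was 2, Batf2 and A530040E14Rik losing their calls (adjusted p = 0.0219 and 0.0237, edgeR). Same-numbered libraries did not deviate together in the tested comparisons (r between -0.218 and 0.168), so the numbers were not taken as pairs. The cause of these shifts was not tested. Between the inhibitors without IFNγ, the count of 0 genes lower in A-241 was 2 at an unadjusted p under 0.05, an alternative chosen after the data were seen, and 0 in the others. The share over all genes at that unadjusted threshold is not given, so nothing is read from the 2. This comparison could not be fitted to the 6 libraries alone, where none of the 6 genes had enough counts. The log2 fold change of Apol10b there changed sign, from 0.08 to -0.18 without A-241 replicate 1 and to -0.25 without A-485 replicate 3, and lay between -0.25 and 0.55. For IFNγ signalling the 3 genes higher with A-485+IFNγ were 6 with DESeq2 and 5 without a filter on low counts. Without IFNγ replicate 2, an alternative also added after the data were seen, 1 in place of 2 apolipoprotein L genes was lower with A-241+IFNγ and the count of immunity-related GTPases was 11 of 12 again. Lower genes were also 4 in place of 3 for IFNγ signalling, 2 in place of 1 for BATF and AP-1, and 8 in place of 9 for neighbours. With total counts the median of all genes shifted by up to 0.13 on the log2 scale. Of the untested fold changes, 496 values under the alternatives moved by less than the spread between replicates and 20 by more. With single libraries or both rich in Gm42418 left out, small ones of 9330175E14Rik (A-241+IFNγ against A-241 or DMSO, A-485 against DMSO) and Apol10b (A-241 or A-485 against DMSO) changed sign, all within 2 standard errors of 0. With between 0 and 16 counts per library outside the IFNγ conditions, values without IFNγ rest on few counts.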
